A study of Mus musculus with 36 samples.

Results

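The genes described here make, sense, move and store cholesterol. The 34 were chosen by symbol from a list with no measured value in its rule, but with earlier results of these data known. The study had reported steroid biosynthesis among the pathways enriched in genes higher in the naïve myelinated optic nerve. Counts of members that differ between naïve tissues are therefore not independent of that report. The same naïve MON pools were the reference for injured MON, so falls there are not fully independent of it either. All 34 were found among the 55487 genes of the deposited count table. By role they were 8 genes of the mevalonate steps, 3 that carry farnesyl units to lanosterol, 8 that turn lanosterol into cholesterol, 7 that sense sterols or set transcription, 4 of transport and storage inside the cell, 3 of efflux and carriage, and 1 brain cholesterol hydroxylase. The first 3 roles without Ggps1, a side branch that makes geranylgeranyl units, form the 18 sterol synthesis genes summed further on. All 34 passed the filter on low counts in each of the 27 comparisons made.

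RNA from the unmyelinated optic nerve (UON, the segment at the optic nerve head), the myelinated optic nerve (MON, the first myelinated stretch behind it) and the whole retina of adult C57BL/6 mice was sequenced in 36 libraries, 12 per tissue. Animals were naïve, or were taken 3 days (3D) or 2 weeks (2W) after a forceps crush of 1 optic nerve behind the eye, or 3D, 2W or 6 weeks (6W) after microbeads were injected into the anterior chamber of 1 eye, which raises eye pressure and is called glaucoma in the labels. No allele or transgene was present in any group. Each group of each tissue held 1 library of female and 1 of male mice, each pooling equal RNA from 2 mice, so n = 2 pools, and neither mice nor sex can be separated from the pool. The 3 tissues of a group came from the same mice, the crushed and pressure-raised animals were different mice, and the naïve pools served as the reference for both models. P-values within a tissue therefore measure the spread between pools of mice. Between naïve tissues, which share their pools, the term for sex takes up the pool difference, and p-values measure the spread that remains. With 2 pools on each side, groups can lie apart by chance, so pools that do not overlap are given as description only. In bulk tissue fewer cells of a type and less RNA per cell cannot be told apart.

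Cholesterol is built from acetyl units through mevalonate, squalene and lanosterol, and in the nervous system most of it is made locally because lipoproteins of the blood do not cross the intact barrier. Myelin is the largest store of it, and oligodendrocytes need it to build and keep their membrane. When sterol in the endoplasmic reticulum is low, SCAP escorts the SREBP factors to be activated and they switch on the synthesis genes, whereas INSIG proteins hold them back when sterol is plentiful. When sterol is in excess, oxysterols activate the liver X receptors, which switch on efflux genes such as Abca1.

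The promoters of 3 members, Hmgcs1, Insig1 and Insig2, are shown as examples. Hmgcs1 and Insig1 are among the few members with a match to the shortened sterol response element below, so their contrast with Insig2 came with the choice of genes. Promoters were searched for letters of the kinds that SREBP factors and their NF-Y partner are known to bind. Each window is RefSeq sequence of GRCm38.p6, 5′ to 3′ on the strand of the gene, from 250 bases before its start to 50 after it. Capitals mark matches, on either strand, to CACNCCAC, a shortened sterol response element, and to CCAAT, the box bound by NF-Y. Hmgcs1, the second enzyme of the pathway, lies at chr13:119690101-119690400 (+ strand), Insig1 at chr5:28071162-28071461 (+ strand), and the outermost of 3 windows of Insig2 at chr1:121332540-121332839 (- strand).
Hmgcs1: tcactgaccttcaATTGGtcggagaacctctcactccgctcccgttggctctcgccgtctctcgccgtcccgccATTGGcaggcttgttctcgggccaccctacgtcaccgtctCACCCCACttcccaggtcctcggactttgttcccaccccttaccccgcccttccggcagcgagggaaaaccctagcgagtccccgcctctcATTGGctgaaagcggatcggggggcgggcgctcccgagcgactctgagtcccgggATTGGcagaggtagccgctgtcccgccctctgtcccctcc
Insig1: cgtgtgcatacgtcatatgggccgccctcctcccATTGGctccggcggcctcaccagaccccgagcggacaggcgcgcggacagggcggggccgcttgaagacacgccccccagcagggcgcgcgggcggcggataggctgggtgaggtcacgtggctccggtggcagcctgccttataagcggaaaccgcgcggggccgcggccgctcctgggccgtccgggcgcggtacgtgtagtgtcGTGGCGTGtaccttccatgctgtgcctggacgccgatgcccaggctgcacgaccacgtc
Insig2: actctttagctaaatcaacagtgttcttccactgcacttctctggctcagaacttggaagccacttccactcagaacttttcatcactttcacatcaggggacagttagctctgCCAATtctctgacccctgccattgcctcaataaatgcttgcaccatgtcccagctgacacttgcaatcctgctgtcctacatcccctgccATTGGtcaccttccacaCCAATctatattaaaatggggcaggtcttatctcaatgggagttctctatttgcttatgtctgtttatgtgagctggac
The Hmgcs1 window held 4 CCAAT matches and 1 CACNCCAC match, that of Insig1 held 1 of each, and that of Insig2 held 3 CCAAT matches and none of the other. The other 2 windows of Insig2, not printed, held 0 matches to either. Of the 34 members, 28 were in the promoter table, among them 15 of the 18 synthesis genes. CCAAT stood in a window of 14 of those 15 synthesis genes (93.3%), all but Acat2, against 41.1% of all 27025 genes in the table. GGGCGG, a box for Sp1, also stood in 14 of the 15 (93.3%), against 38.2% of all genes. The longer TCACNCCAC was found in Hmgcs1 alone of the 15 and in 1.44% of all genes. CACNCCAC, which it contains, was found in 2 of the 15 (13.3%), once in Hmgcs1 and 2 times in Acat2, and in 7.12% of all genes. Over all 28 members it stood in 3 (10.7%), Hmgcs1, Insig1 and Acat2, so most synthesis genes lacked CACNCCAC as Insig2 did. These are matches of letters in 300 bases and not measured sites, and their part in the direction of any gene was not tested.

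Depth ranged from 16158723 to 58461609 estimated counts in UON, from 16326906 to 78054205 in MON and from 19931516 to 55990831 in retina. Defining markers fitted the labelled tissues in naïve mice. The summed level of 8 photoreceptor genes was 20678 to 20702 FPKM (fragments scaled to transcript length and library size) in retina and 5.94 to 33.9 FPKM in the nerve, and that of 12 oligodendrocyte genes was 14885 to 18692 FPKM in MON, 2008 to 2722 FPKM in UON and 23.5 FPKM in both retina pools. A summed level of 10 astrocyte genes was highest in UON, at 6432 to 7174 FPKM. Gfap made up most of it, with means of 4316 FPKM in UON and 3092 FPKM in MON, and the other genes were split. Gja1, Slc1a3, Sox9 and Aldh1l1 also had their highest means in UON. Aqp4 and S100b were higher in MON (136 against 67.7 FPKM and 548 against 452 FPKM). Fabp7 was alike in both stretches, and Slc1a2 and Aqp1 were highest in retina. Among genes of fibroblasts and meninges, Col1a1, Col1a2, Dcn, Lum and Slc6a13 had higher naïve means in UON than in MON. Col1a2 stood at 202 against 16.6 FPKM and Dcn at 246 against 64.9 FPKM. Pdgfra was lower in UON (5.48 against 9.29 FPKM). The part of these genes in the results was not tested.

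In naïve mice the sterol synthesis genes were high in MON. By the mean FPKM of the pools, 26 of the 34 members were highest in MON, 6 in UON and 2 in retina, with the same counts by TPM, and all 18 synthesis genes were highest in MON. The share of all genes with their highest mean in MON was not worked out, so these counts have no reference beside them. The sum of the synthesis genes was 949.6 and 1155 FPKM in the MON pools. It was 411 and 465 FPKM in the retina pools and 278 and 282 FPKM in the UON pools, with no overlap between tissues. Apoe, the main lipid carrier of brain lipoproteins, was the most abundant member in each tissue, with means of 5702 FPKM in MON, 4055 FPKM in UON and 547 FPKM in retina. The Apoe pools were far apart, however, at 3231 FPKM in females and 8173 FPKM in males in MON and at 843 and 251 FPKM in retina, so that its order between MON and UON lay within its spread. Below Apoe, Hmgcs1 and Fdps ranked next in MON with means of 231 and 176 FPKM, whereas in UON their means were 36.8 and 35.0 FPKM. Stard4, a carrier of sterol between membranes, was the lowest member in UON, at 1.38 FPKM in females and 1.54 FPKM in males.

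**Figure D1:**
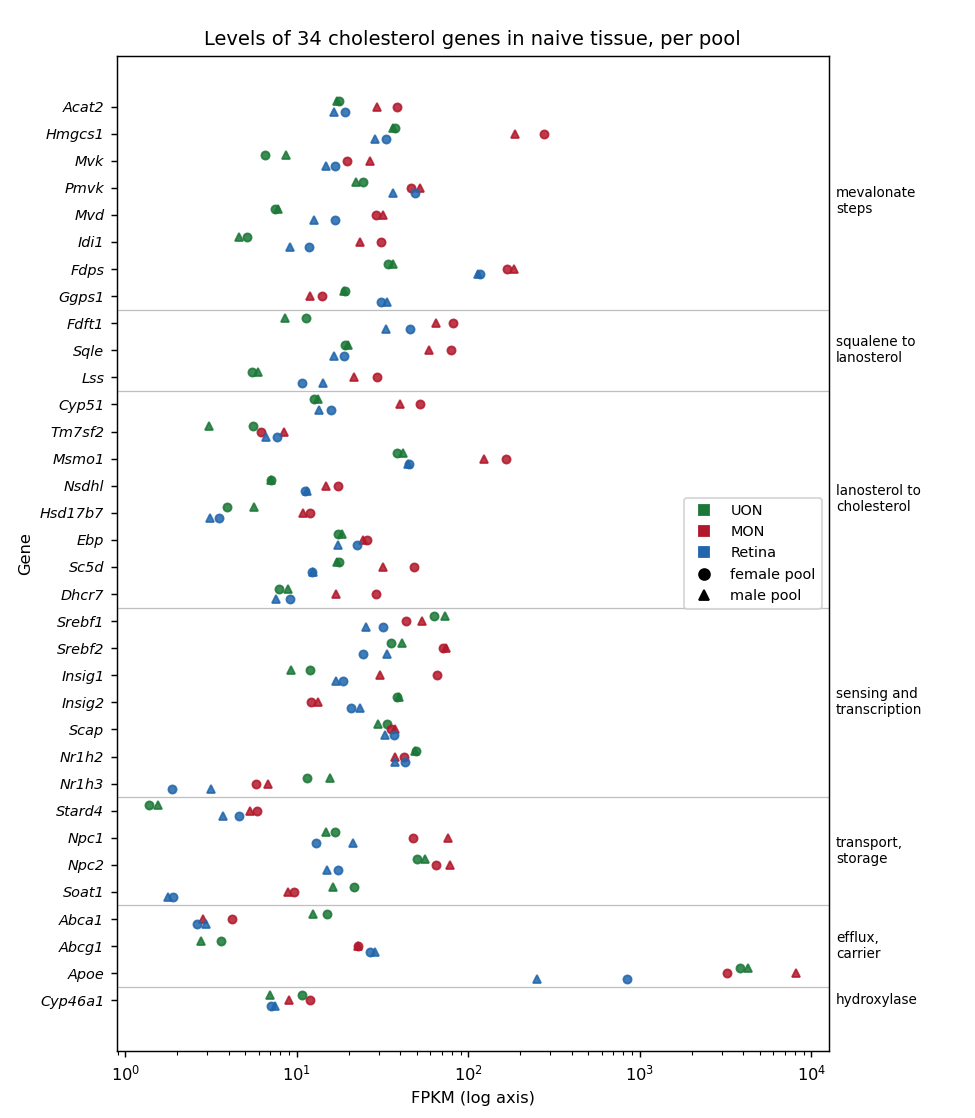
Level of each of the 34 members in naïve UON, MON and retina as FPKM on a log axis, with 1 point per pool (female and male, n = 2 pools per tissue). All 18 synthesis genes had their highest mean in MON, and Apoe lay above the other members in each tissue.

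The first comparison asked how the unmyelinated and myelinated stretches of the same nerve differ before injury. A gene was called where its adjusted p was below 0.05 and its log2 fold change beyond 1 in either direction, by edgeR's quasi-likelihood test with Benjamini-Hochberg adjustment over all genes tested, and each ± below is a standard error. Of the 34 members, 20 were lower and 3 higher in UON than in MON. Of all 23685 genes tested, 4.8% were called lower and 4.83% higher. The 18 synthesis genes all had negative values, from -2.96 to -0.54 with a median of -1.75, beside a median of -0.06 over all genes, of which 52.7% were negative. The 12 oligodendrocyte markers were all called lower in UON as well, with a median log2 fold change of -3.01, and their part in the result was not tested. When single libraries were left out, between 17 and 23 members were called, and Pmvk, Nsdhl, Hsd17b7, Sc5d, Srebf2 and Soat1 lost their calls without 1 or more of the 4 nerve pools, with no change of sign.

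Among the mevalonate genes, 6 of 8 were lower in UON. Hmgcs1, the synthase that precedes mevalonate, stood at 37.2 FPKM in the female and 36.4 FPKM in the male UON pool, against 276 and 187 FPKM in MON. Its log2 fold change was -2.68 ± 0.27 (edgeR adjusted p = 0.0022), and the tissues were far apart although the MON pools differed from each other. Fdps, which makes farnesyl diphosphate, stood at 33.8 and 36.2 FPKM in UON and at 168 and 184 FPKM in MON (log2 fold change -2.42 ± 0.21, edgeR adjusted p = 0.00156). Idi1, the isopentenyl isomerase, stood at 5.13 and 4.61 FPKM in UON and at 30.7 and 23.3 FPKM in MON (-2.61 ± 0.25 on the log2 scale). The MON pools of both genes lay well above the UON pools. Mvd, the decarboxylase that makes the isopentenyl unit, was lower at -2.07 ± 0.24 on the log2 scale, and the kinases Mvk and Pmvk by -1.61 ± 0.26 and -1.11 ± 0.22. Acat2, which joins acetyl units, missed the adjusted limit at -0.82 on the log2 scale (edgeR adjusted p = 0.0601), and Ggps1 stood at 0.50 on that scale (edgeR adjusted p = 0.21).

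The 3 genes from farnesyl units to lanosterol were all lower in UON. Fdft1, squalene synthase, had the largest difference of the synthesis genes, with 11.3 and 8.54 FPKM in UON against 81.4 and 64.7 FPKM in MON (log2 fold change -2.96 ± 0.21, edgeR adjusted p = 0.00139). Fdft1 shares 774 bases with Ctsb on the opposite strand, and Ctsb had its higher level in UON (295 FPKM, against 193 FPKM in MON). Sqle, the epoxidase that is a rate-limiting step, stood at 19.1 and 19.8 FPKM in UON and at 79.6 and 58.6 FPKM in MON, and Lss, which closes the sterol rings, at 5.44 and 5.97 against 29.4 and 21.6 FPKM. Their log2 fold changes were -1.89 ± 0.24 and -2.21 ± 0.25, and in neither gene did the tissues overlap.

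Of the 8 genes that turn lanosterol into cholesterol, 6 were lower in UON. Msmo1, the methyl sterol oxidase, stood at 38.5 and 41.4 FPKM in UON and at 167 and 124 FPKM in MON (log2 fold change -1.96 ± 0.25, edgeR adjusted p = 0.00432). Cyp51, the lanosterol demethylase, stood at 12.7 and 13.3 FPKM in UON and at 51.9 and 40.1 FPKM in MON (-1.88 ± 0.22 on the log2 scale). For both genes the UON pools lay close together, and the MON pools were further apart but well above them. Dhcr7, a reductase of the final step, had a log2 fold change of -1.48 ± 0.24, and Hsd17b7, Nsdhl and Sc5d had log2 fold changes between -1.28 and -1.26. Tm7sf2 and Ebp were not called, at -0.99 (edgeR adjusted p = 0.167) and -0.54 (edgeR adjusted p = 0.199) on the log2 scale.

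The sensing genes were split. Insig1, which SREBP factors switch on, stood at 11.9 and 9.28 FPKM in UON and at 65.8 and 30.4 FPKM in MON (log2 fold change -2.20 ± 0.33, edgeR adjusted p = 0.00815). Insig2, its relative, was higher in UON, at 38.6 and 39.5 FPKM against 12.1 and 13.3 FPKM in MON (log2 fold change 1.71 ± 0.20, edgeR adjusted p = 0.00331). The INSIG genes thus had opposite signs between the same tissues, with no overlap of the pools in either. Srebf2, the SREBP factor that acts mainly on sterol synthesis, was lower in UON at 35.4 and 40.8 FPKM against 70.9 and 74.3 FPKM (log2 fold change -1.08 ± 0.22, edgeR adjusted p = 0.0264). Srebf1, which acts mainly on fatty acid genes, was not called at 0.45 on the log2 scale (edgeR adjusted p = 0.305). Scap and the liver X receptor genes Nr1h2 and Nr1h3 were not called either, with log2 fold changes of -0.21 and 0.27 for the first 2 and an edgeR adjusted p of 0.0886 for Nr1h3, at 11.5 and 15.6 FPKM in UON and 5.81 and 6.79 FPKM in MON.

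The transport and efflux genes were also split. Stard4 was lower in UON (-1.96 ± 0.26 on the log2 scale, edgeR adjusted p = 0.00539), with 5.83 and 5.32 FPKM in the MON pools. Npc1, which lets cholesterol out of lysosomes, stood at 16.7 and 14.8 FPKM in UON and at 47.6 and 75.7 FPKM in MON (log2 fold change -1.83 ± 0.26, edgeR adjusted p = 0.00673). Its partner Npc2 was not called at -0.48 on the log2 scale. Soat1, which esterifies cholesterol for storage, was higher in UON at 21.6 and 16.2 FPKM against 9.62 and 8.89 FPKM, and lay close to the limit (log2 fold change 1.08 ± 0.27, edgeR adjusted p = 0.0495).

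Abca1, the exporter to lipid-poor apolipoproteins, stood at 14.99 and 12.4 FPKM in UON and at 4.16 and 2.84 FPKM in MON (log2 fold change 1.92 ± 0.24, edgeR adjusted p = 0.00453). Abcg1, the exporter to formed lipoprotein particles, stood at 3.63 and 2.78 FPKM in UON and at 22.6 and 22.7 FPKM in MON (log2 fold change -2.95 ± 0.23, edgeR adjusted p = 0.00139). Both exporters are targets of the liver X receptors, and they too had opposite signs with no overlap of the pools. Apoe and Cyp46a1, the neuronal hydroxylase that clears brain cholesterol, were not called (log2 fold changes of -1.27 ± 0.92 and -0.35 ± 0.26).

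**Figure D2:**
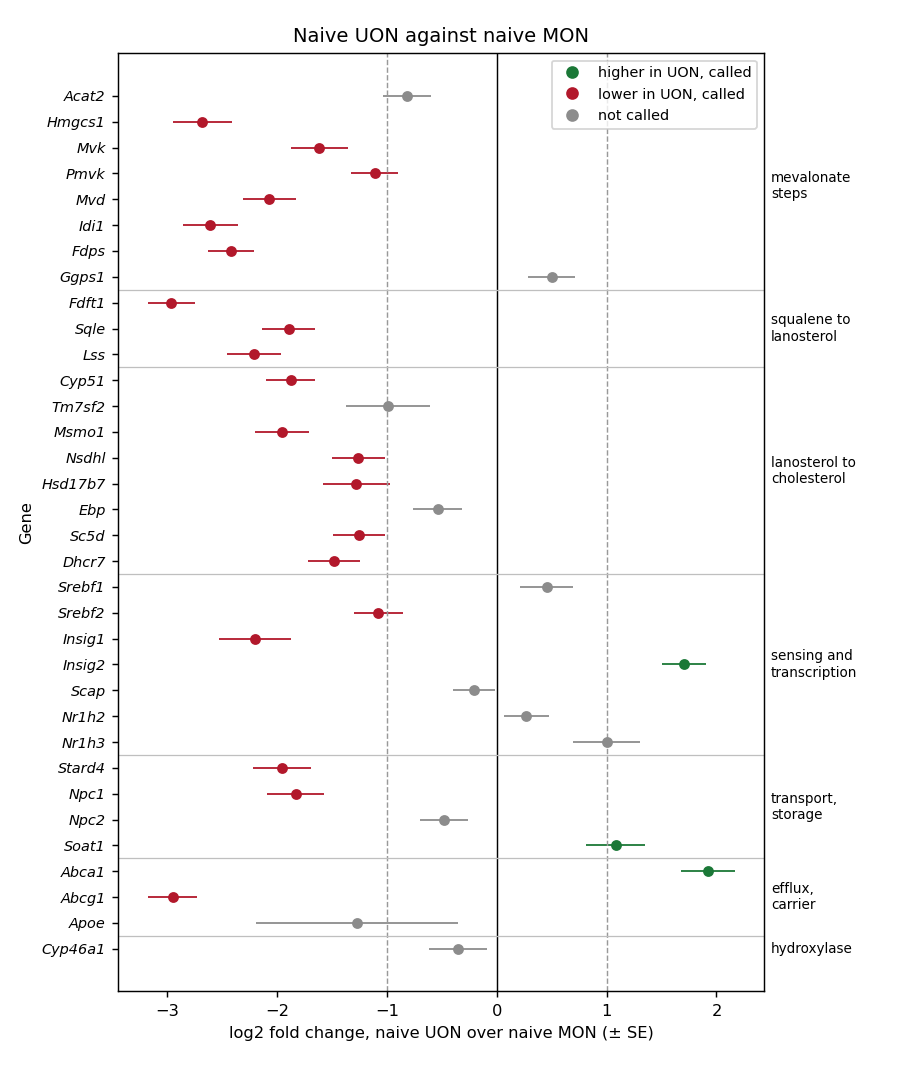
Log2 fold change of the 34 members in naïve UON relative to MON by edgeR, ordered by role, with bars of 1 standard error and called members marked (n = 2 pools per tissue). The synthesis genes lie to the left of 0, whereas Insig2, Soat1 and Abca1 lie to the right and Abcg1 lies with Fdft1 at the left end.

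Comparison with the retina separated the nerve stretches further. In MON, 21 members were higher than in retina and 0 lower, against 16.7% of all genes called higher and 10.9% lower. The synthesis genes were all positive, with a median log2 fold change of 1.51. The largest difference of a synthesis gene was that of Hmgcs1, at 276 and 187 FPKM in MON and 33.1 and 28.5 FPKM in retina (log2 fold change 3.41 ± 0.28, edgeR adjusted p = 0.000133). Sqle followed at a log2 fold change of 2.43 ± 0.24, and Sc5d, Cyp51, Hsd17b7 and Msmo1 lay between 2.21 and 2.25. Idi1, Lss, Mvd, Dhcr7, Fdft1, Acat2 and Fdps were called with log2 fold changes from 1.85 down to 1.07. Outside synthesis, Soat1 (3.07 ± 0.29), Npc2 (2.64 ± 0.24), Npc1 (2.22 ± 0.26), Nr1h3 (2.19 ± 0.32), Srebf2 (1.93 ± 0.23), Insig1 (1.84 ± 0.33) and Srebf1 (1.32 ± 0.24) were called on the same log2 scale. Apoe was called at 3.66 ± 1.07 on the log2 scale (edgeR adjusted p = 0.0388), with the wide spread between pools given above, and was not called by DESeq2 or without the male pool of either tissue (2.04 on the log2 scale in both cases). Fdps was just under the fold limit by DESeq2 (0.99) and missed both limits without the male retina pool (0.99, edgeR adjusted p = 0.0781), and Srebf1 lost its call without that pool. Abcg1 was not called between MON and retina (0.14 on the log2 scale, edgeR adjusted p = 0.684).

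In UON, 6 members were higher than in retina and 4 lower, against 18.2% of all genes called higher and 13.5% lower, so that the share of members called in either direction was no greater than that of all genes. The median log2 fold change of the synthesis genes was -0.13, beside -0.17 over all genes. Soat1 had the largest difference, at 21.6 and 16.2 FPKM in UON and 1.91 and 1.77 FPKM in retina (log2 fold change 4.16 ± 0.31, edgeR adjusted p = 7.66e-05). Nr1h3 (3.19 ± 0.33), Abca1 (2.64 ± 0.25), Npc2 (2.16 ± 0.23), Srebf1 (1.77 ± 0.25) and Insig2 (1.23 ± 0.20) were also higher in UON on the log2 scale. Abcg1 was lower, at 3.63 and 2.78 FPKM against 26.7 and 28.7 FPKM in retina (log2 fold change -2.81 ± 0.23, edgeR adjusted p = 0.000108), and its level thus divided UON from both other tissues. Fdft1, Fdps and Stard4 were lower at log2 fold changes of -1.61 ± 0.20, -1.35 ± 0.20 and -1.01 ± 0.25. Stard4 lost its call when any 1 of the 6 naïve libraries was left out.

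After crush, the members were followed in each tissue against the naïve pools. In MON at 3D, 1 of the 34 passed the test, against 3.61% of all 19988 genes called higher and 0.655% called lower. Abca1 rose from 4.16 FPKM in the female and 2.84 FPKM in the male naïve pool to 18.6 and 17.3 FPKM, which was 2.38 ± 0.30 on the log2 scale (edgeR adjusted p = 0.0117), and the groups did not overlap. Without either naïve pool it kept its size (2.53 without the female and 2.23 without the male pool, on the log2 scale) but was not called. Soat1 stood at 20.6 and 26.8 FPKM after crush against 9.62 and 8.89 FPKM in naïve mice and was just outside the limit (log2 fold change 1.33 ± 0.30, edgeR adjusted p = 0.0527). The median of the synthesis genes was -0.56 on the log2 scale and 0 of the 18 were called, with 15 of 18 negative. The synthesis sum was 602 to 821 FPKM, below the naïve range of 949.6 to 1155 FPKM. An unadjusted edgeR p below 0.05 was found for 8 of the 34 (23.5%), beside 21.0% of all genes. DESeq2, the tool of the study, called 5 of the 34 at 3D, with Hmgcs1, Srebf1 and Cyp46a1 lower and Abca1 and Soat1 higher. It called 12.3% of all genes in either direction, so that by either measure the share of members was near that of all genes.

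At 2W after crush, 11 members had fallen in MON and 1 had risen, against 0.595% of all genes called lower and 2.13% called higher. All 18 synthesis genes had negative log2 fold changes, from -2.72 to -0.48 with a median of -1.77, beside a median of 0.05 over all genes. Their sum was 242 and 299 FPKM in the pools, about the level of the naïve UON, at 278 and 282 FPKM. No pool of the 2W group overlapped the naïve range of the sum.

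Hmgcs1 fell to 34.8 FPKM in the female and 45.3 FPKM in the male pool, from 276 and 187 FPKM in naïve MON (log2 fold change -2.59 ± 0.41, edgeR adjusted p = 0.0314). Fdps fell to 28.7 and 30.7 FPKM from 168 and 184 FPKM, the synthesis gene with the smallest adjusted p (log2 fold change -2.68 ± 0.28, edgeR adjusted p = 0.0129). Both groups were tight for Fdps, and wider for Hmgcs1. Mvd, Mvk and Pmvk fell by 1.99, 1.53 and 1.27 on the log2 scale. Idi1 had a log2 fold change of -2.68 but a wider error of 0.55, with 3.52 and 6.77 FPKM after crush, and was not called (edgeR adjusted p = 0.0522). Acat2 stood at 10.5 and 15.5 FPKM against 38.5 and 29.4 FPKM in naïve MON. Ggps1 stood at 16.1 and 15.1 FPKM against 13.9 and 11.96 FPKM. Neither Acat2 nor Ggps1 was called.

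Fdft1 fell to 8.49 and 15.2 FPKM from 81.4 and 64.7 FPKM (log2 fold change -2.72 ± 0.43, edgeR adjusted p = 0.0308). Sqle fell to 11.7 and 20.4 FPKM from 79.6 and 58.6 FPKM (log2 fold change -2.21 ± 0.41, edgeR adjusted p = 0.0415). Lss fell to 6.89 and 6.76 FPKM and Cyp51 to 10.9 and 11.99 FPKM, with log2 fold changes of -2.30 ± 0.36 and -2.14 ± 0.32. In these 4 genes no crushed pool reached the lower naïve pool, which 2 pools against 2 can show by chance. Msmo1 stood at 23.9 and 43.2 FPKM against 167 and 124 FPKM and was not called (log2 fold change -2.20 ± 0.45, edgeR adjusted p = 0.0525). Sc5d and Nsdhl also missed the adjusted limit at -1.55 and -1.43 on the log2 scale, and Hsd17b7, Ebp, Dhcr7 and Tm7sf2 had log2 fold changes between -0.81 and -0.48.

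Insig1 fell to 7.40 and 9.73 FPKM from 65.8 and 30.4 FPKM (log2 fold change -2.47 ± 0.46, edgeR adjusted p = 0.0412), and Stard4 fell to 1.12 and 1.36 FPKM from 5.83 and 5.32 FPKM (log2 fold change -2.17 ± 0.39, edgeR adjusted p = 0.0394). Both are known targets of the SREBP factors, as are the synthesis enzymes. Insig2 was not called, at 18.2 and 17.6 FPKM against 12.1 and 13.3 FPKM (log2 fold change 0.38). Srebf2 stood at 28.9 and 37.3 FPKM against 70.9 and 74.3 FPKM and was not called (log2 fold change -1.31 ± 0.32, edgeR adjusted p = 0.085). Srebf1 stood at 76.8 and 71.1 FPKM against 43.2 and 53.4 FPKM (log2 fold change 0.57, edgeR adjusted p = 0.543), and Scap, Nr1h2 and Nr1h3 had log2 fold changes between -0.24 and -0.15.

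Abca1 was the member that rose, to 42.4 and 27.3 FPKM from 4.16 and 2.84 FPKM (log2 fold change 3.21 ± 0.31, a 9.25-fold difference, edgeR adjusted p = 0.0109). Soat1 stood at 25.2 and 20.5 FPKM, well above both naïve pools, and was not called (log2 fold change 1.20 ± 0.29, edgeR adjusted p = 0.0833). Abcg1, the other exporter, stood at 0.13 on the log2 scale (edgeR adjusted p = 0.914), with 38.9 FPKM in the female and 17.8 FPKM in the male pool on either side of the naïve values. Npc2 stood at 147 and 108 FPKM against 64.8 and 77.6 FPKM (log2 fold change 0.73, edgeR adjusted p = 0.297), and Apoe at 14365 and 10341 FPKM against 3231 and 8173 FPKM (log2 fold change 0.23 ± 0.88). By FPKM both crush pools of Apoe thus lay above both naïve pools, whereas its fold change from counts was small beside its error. The cause of this mismatch was not tested. Npc1 stood at 32.8 and 27.9 FPKM against 47.6 and 75.7 FPKM and was not called. Its pools in every other injured MON group also lay below both naïve pools, without a call. The same naïve pools served in each of these comparisons. Cyp46a1 stood at 12.9 and 18.1 FPKM against 11.9 and 8.94 FPKM and was not called.

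Most or all of the calls at 2W were lost when either naïve MON pool was left out and 1 naïve library remained. The share of all genes called in those fits is not given here, so the loss cannot be read as particular to the members. Log2 fold changes without either naïve pool stayed between -3.05 and -1.23 for the 11 that fell and between 3.08 and 3.36 for Abca1. DESeq2 called 19 members, out of 8.93% of all genes called in either direction, and added Acat2, Idi1, Msmo1, Nsdhl, Sc5d and Srebf2 as lower and Soat1 as higher.

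**Figure D3:**
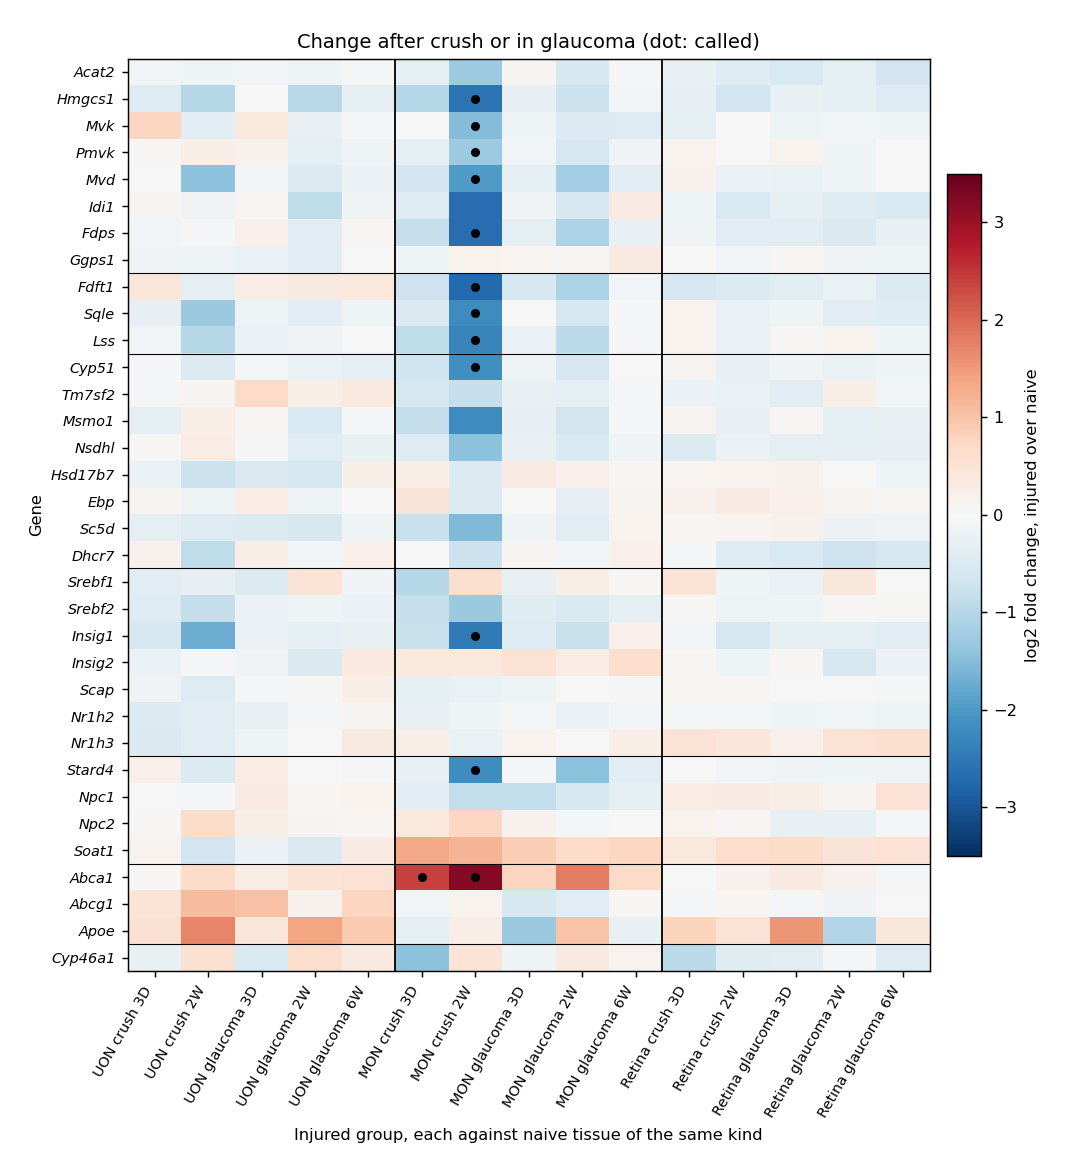
Log2 fold change against naïve of the 34 members (lines, by role) in each injured group of UON, MON and retina (columns) by edgeR, with called values marked. The darkest column is MON at 2W after crush, with the synthesis genes low and Abca1 high, and the other columns hold 1 call, Abca1 in MON at 3D.

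The times and the models were then set against each other in MON. Between 3D and 2W of crush, 0 members were called by edgeR, against 0.075% of all genes, and 20 of the 34 had an unadjusted p below 0.05, as had 12.5% of all genes. The median of the synthesis genes was -1.34 on the log2 scale, with all 18 negative. Fdps stood at 113 and 97.1 FPKM at 3D and 28.7 and 30.7 FPKM at 2W and came nearest to the limit (log2 fold change -1.87 ± 0.28, edgeR adjusted p = 0.0662). Srebf1 stood at 36.5 and 17.98 FPKM at 3D and had a positive value (log2 fold change 1.56 ± 0.39, edgeR adjusted p = 0.167). DESeq2 called 14 members between the times, against 5.95% of all genes. The lower ones were Hmgcs1, Mvk, Mvd, Idi1, Fdps, Fdft1, Sqle, Lss, Cyp51, Msmo1, Insig1 and Stard4, and the higher ones Srebf1 and Cyp46a1.

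Crush and glaucoma were compared at matched times. At 2W edgeR called 0 members, against 0.0485% of all genes, with 19 of 34 at an unadjusted p below 0.05, beside 7.51% of all genes, and a median of -1.17 for the synthesis genes. Cyp51 and Fdps had the smallest adjusted p-values, at log2 fold changes of -1.60 ± 0.26 (edgeR adjusted p = 0.132) and -1.62 ± 0.27 (edgeR adjusted p = 0.133) in crush relative to glaucoma. DESeq2 called 12 members, out of 1.8% of all genes, with 11 lower after crush (Hmgcs1, Mvk, Idi1, Fdps, Fdft1, Sqle, Lss, Cyp51, Msmo1, Sc5d and Insig1) and Abca1 higher. At 3D edgeR called 0 members, against 0.0162% of all genes, with 5 of 34 (14.7%) at an unadjusted p below 0.05, beside 10.4% of all genes. DESeq2 called Abca1 alone, out of 3.34% of all genes, and its edgeR log2 fold change was 1.55 (edgeR adjusted p = 0.349).

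In MON of the glaucoma model, 0 members were called at 3D, 2W or 6W, against 0% of all genes each time. At an unadjusted p below 0.05 stood 3, 11 and 2 members (8.82%, 32.4% and 5.88%), beside 8.07%, 8.78% and 4.91% of all genes, so that the shares at 3D and 6W were near those of all genes. The synthesis sum was 906 to 962 FPKM at 3D, 617 to 782 FPKM at 2W and 968 to 994 FPKM at 6W, so that only the 2W pools lay wholly below the naïve range of 949.6 to 1155 FPKM. Hmgcs1 stood at 136 and 163 FPKM at 2W and at 203 and 238 FPKM at 6W. Fdft1 stood at 37.8 and 39.3 FPKM at 2W (log2 fold change -1.11, edgeR adjusted p = 0.293), and Stard4 at 3.31 and 3.75 FPKM (-1.44 on the log2 scale, edgeR adjusted p = 0.379). None of these genes was called. Their 2W pools lay below both naïve pools, which 2 pools against 2 can do by chance. Abca1 stood at 14.7 and 10.5 FPKM at 2W, above both naïve pools (log2 fold change 1.79, edgeR adjusted p = 0.293), at 10.3 and 2.78 FPKM at 3D and at 5.71 and 5.19 FPKM at 6W. Soat1 lay above both naïve pools at each time, at 18.6 and 15.2, 18.1 and 14.5, and 14.9 and 13.8 FPKM (edgeR adjusted p = 0.357, 0.432 and 0.849). DESeq2 called 5 members at 2W, out of 2.65% of all genes, with Mvd, Fdps, Fdft1 and Stard4 lower and Abca1 higher. Between 3D and 6W of glaucoma in MON 0 members were called, against 0% of all genes, and 1 of 34 (2.94%) had an unadjusted p below 0.05, beside 4.96% of all genes.

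**Figure D4:**
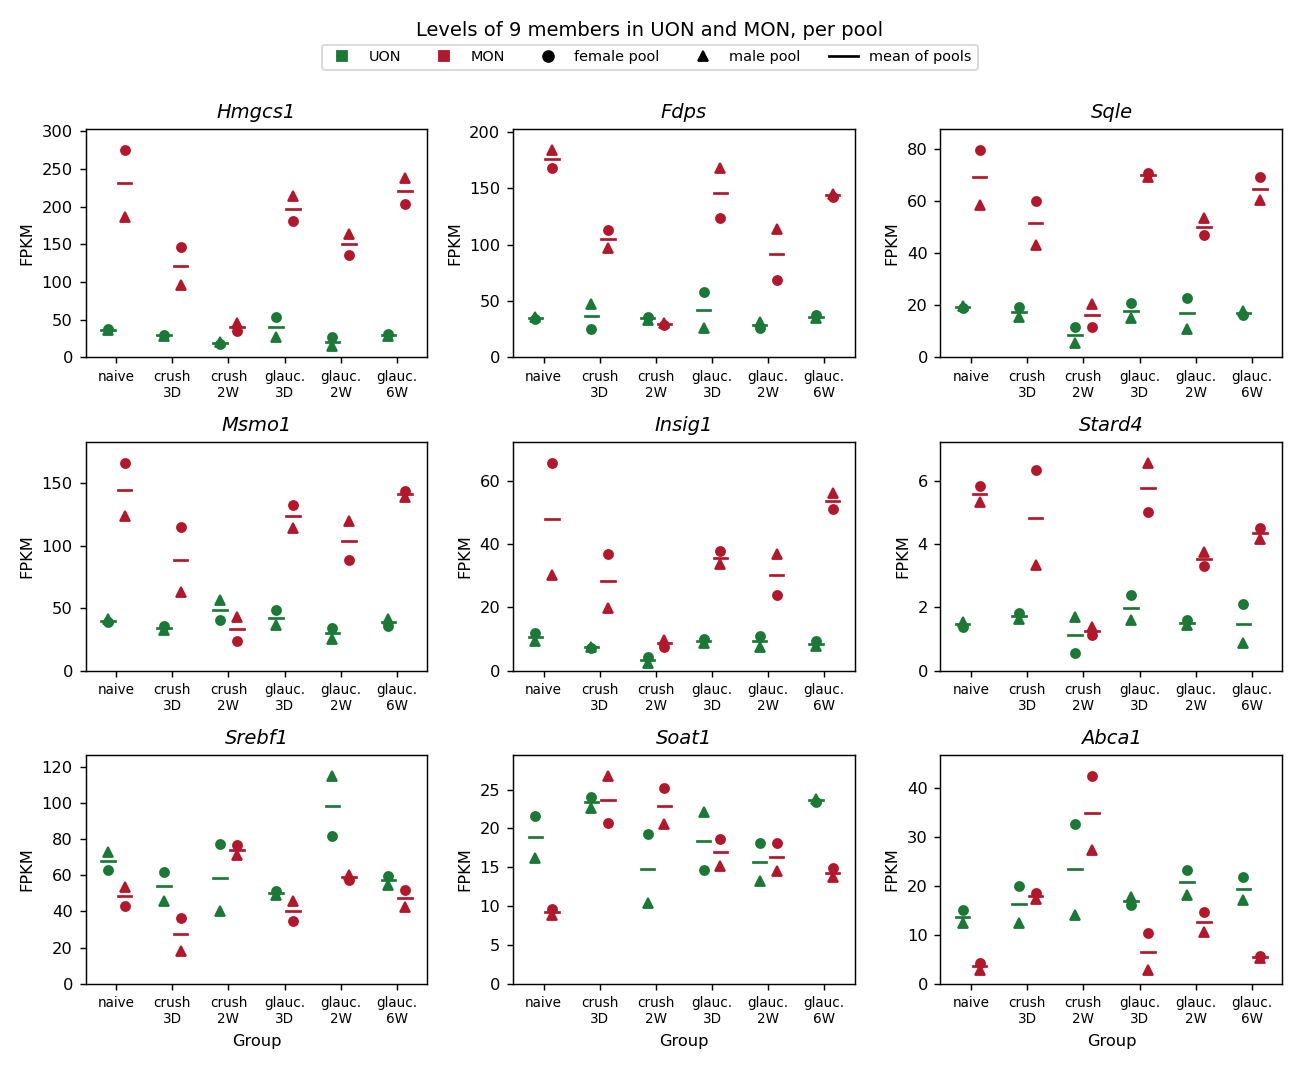
FPKM of 9 members in UON and MON by group, with 1 point per pool and a line at the group mean (n = 2 pools). In MON Hmgcs1, Fdps, Sqle, Msmo1, Insig1 and Stard4 are lowest at 2W after crush, Abca1 and Soat1 lie above naïve after crush, and in UON the 3D glaucoma pools of Hmgcs1 and Fdps are far apart.

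In UON no member was called at any time of either model. Of all genes, 0% were called at 3D after crush, 0.0281% at 2W after crush, and 0% at each time of glaucoma. The members with an unadjusted p below 0.05 were 0, 8, 0, 2 and 0 in the order 3D and 2W of crush and 3D, 2W and 6W of glaucoma, beside 3.07%, 9.27%, 3.87%, 3.57% and 2.01% of all genes, and 8 and 2 of 34 are 23.5% and 5.88%. The 8 at 2W of crush were Hmgcs1, Mvd, Sqle, Lss, Srebf2 and Insig1 with negative and Abcg1 and Apoe with positive log2 fold changes. Insig1 stood at 4.32 and 2.53 FPKM against 11.9 and 9.28 FPKM in naïve UON (log2 fold change -1.75 ± 0.37, edgeR adjusted p = 0.394), and it was the member that DESeq2 called, out of 2.66% of all genes. Fdps stood at 35.8 and 33.5 FPKM against 33.8 and 36.2 FPKM, within the naïve range or close to it. Abca1 stood at 32.7 FPKM in the female and 14.1 FPKM in the male pool, the latter between the naïve values of 14.99 and 12.4 FPKM. The synthesis sum in UON was 231 to 256 FPKM at 2W after crush and 207 to 267 FPKM at 2W of glaucoma, under the naïve 278 to 282 FPKM. The oligodendrocyte sum in UON was 2794 FPKM in the female and 530.7 FPKM in the male pool at 2W after crush and 1096 to 1433 FPKM at 2W of glaucoma, against 2008 to 2722 FPKM in naïve UON, and its part in the result was not tested.

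The 3D glaucoma pools of UON stood apart from each other. Hmgcs1 was 53.9 FPKM in the female and 26.5 FPKM in the male pool, and Fdps 57.8 and 25.7 FPKM, with the naïve values between them. The oligodendrocyte sum of these pools was 5853 FPKM in the female and 1780.4 FPKM in the male, against 2008 to 2722 FPKM in naïve UON, and its part in the result was not tested.

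Whether MON and UON responded differently was tested as the difference of their responses. The UON and MON libraries of the same mice entered this fit as separate libraries, with a term for sex and no block for the pool. At 2W after crush edgeR called 0 members, against 0% of all genes, with 13 of 34 at an unadjusted p below 0.05, beside 10.9% of all genes, and 16 of the 18 synthesis genes more negative in MON (median -1.27 on the log2 scale). The difference was -2.63 ± 0.41 for Fdps and 2.55 ± 0.43 for Abca1, each with an edgeR adjusted p of 0.146, and -2.48 ± 0.54 for Msmo1 (edgeR adjusted p = 0.151). DESeq2 called 10 members, out of 3.6% of all genes, with Hmgcs1, Pmvk, Idi1, Fdps, Fdft1, Cyp51, Msmo1 and Nsdhl more negative and Soat1 and Abca1 more positive in MON. At 3D after crush edgeR called 0 members, against 0.012% of all genes, and the difference for Abca1 was 2.30 (edgeR adjusted p = 0.25), which DESeq2 called alone, out of 1.42% of all genes. For glaucoma 0 members were called at 3D, 2W or 6W, against 0% of all genes each time, and 2, 3 and 0 of 34 (5.88%, 8.82% and 0%) had an unadjusted p below 0.05, beside 5.86%, 6.18% and 3.1% of all genes.

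In retina no member was called in any injured group. Of all genes, 0.0221% were called at 3D and 0.313% at 2W after crush, and 0.00429%, 0% and 0.00858% at 3D, 2W and 6W of glaucoma. An unadjusted p below 0.05 was found for 4 members (11.8%) each time except 2W of glaucoma, when it was 5 (14.7%), beside 5.67% to 8.99% of all genes. Hmgcs1 stood at 19.7 and 17.5 FPKM at 2W after crush against 33.1 and 28.5 FPKM in naïve retina (log2 fold change -0.66 ± 0.15, edgeR adjusted p = 0.215). Cyp46a1 stood at 3.91 and 4.31 FPKM at 3D after crush against 7.05 and 7.46 FPKM (log2 fold change -0.94 ± 0.20, edgeR adjusted p = 0.405). The medians of the synthesis genes in retina lay between -0.24 and 0.02 on the log2 scale.

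Other genes of sterol handling did not share the pattern of the synthesis genes between naïve UON and MON or at 2W after crush in MON. Of 24 such genes, 3 were higher and 3 lower in naïve UON than in MON, beside 4.83% and 4.8% of all genes. Their median log2 fold change was -0.01, and the calls were led by Osbp at -1.63, Lrp1 at 1.43 and Tspo at 1.29. Against retina, 11 were higher and 4 lower in UON, beside 18.2% and 13.5% of all genes. In MON 15 were higher and 4 lower than in retina, beside 16.7% and 10.9% of all genes, so that most were higher there, as were most synthesis genes. Both comparisons were led by Apod, a lipid carrier (9.03 and 9.47 on the log2 scale), and Lcat, which esterifies cholesterol on lipoproteins (6.25 and 5.73). Gramd1c (4.43) in UON and Ch25h (4.64) in MON came next. In MON after crush, 5 were higher at 3D, beside 3.61% of all genes, led by Lpl at 3.12, Ch25h at 3.02 and Mylip at 1.75 on the log2 scale. At 2W, 4 were higher and 0 lower, beside 2.13% and 0.595% of all genes. Lpl, the lipoprotein lipase, led at 5.72 ± 0.46 on the log2 scale (edgeR adjusted p = 0.00884), followed by Apoc1 at 5.06 and Ch25h, the cholesterol hydroxylase of activated macrophages, at 2.92.

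Fatty acid synthesis genes, which SREBP factors also act on, were described beside them. Of 10, 4 were lower in naïve UON than in MON, Elovl6 (-2.59), Acss2 (-1.95), Acaca (-1.80) and Fasn, with a median of -0.80 on the log2 scale. Against retina 5 were higher and 1 lower in UON and 7 higher in MON, led by Scd1 at 6.50 and 6.71 on the log2 scale, with Fads2 (3.57) and Fads1 (3.36) next in UON and Scd2 (4.18) and Fads1 (3.62) in MON. At 2W after crush in MON, 1 of 10 fell, the elongase Elovl6, by 1.60 on the log2 scale, and the median was -0.61, beside -1.77 for the sterol synthesis genes. At 3D 0 of 10 were called. The shares of all genes called in each of these comparisons were those given above.

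The summed level of the oligodendrocyte markers in MON was lowest at 2W after crush, as was that of the synthesis genes. The oligodendrocyte sum was 14885 to 18692 FPKM in naïve MON, 9126 to 12551 FPKM at 3D and 6064 to 6980.3 FPKM at 2W after crush, and 12346 to 13289 FPKM at 2W of glaucoma. At 2W after crush all 12 of its genes had negative log2 fold changes, with a median of -1.30. Of the 12, 1 passed the test, Mog at -1.67, beside 0.595% of all genes called lower. The synthesis sum was 6.18% of the oligodendrocyte sum in the female and 6.38% in the male naïve pool, 6.55% and 6.60% at 3D after crush, and 4.00% and 4.29% at 2W. At 2W of glaucoma it was 4.999% and 5.88%, and at 3D and 6W it lay between 5.82% and 6.35%. The 2W crush pools had the lowest shares of the 12 MON libraries.

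The sum of 12 microglia and macrophage genes was 541 to 665 FPKM in naïve MON, 2365 to 3262 FPKM at 3D and 1956 to 3708 FPKM at 2W after crush. At these crush times 5 and 4 of the 12 were called higher, beside 3.61% and 2.13% of all genes. It was 1272 to 1592 FPKM at 3D, 1309 to 1772 FPKM at 2W and 869 to 1056 FPKM at 6W of glaucoma. In UON it was 547 to 618 FPKM in naïve mice and 1566 to 1972 FPKM at 2W after crush. The naïve sums of the 2 stretches were near each other through Lgals3, with naïve means of 325 FPKM in UON and 148 FPKM in MON. Cx3cr1 was also higher in naïve UON, and the other genes of the sum had lower naïve means there than in MON. In MON the sum was highest after crush, as were Abca1 and Soat1. The sum of 10 astrocyte genes in MON was 3872 to 4688 FPKM in naïve mice, 2392 to 4540.2 FPKM at 3D and 4882 to 7378 FPKM at 2W after crush, and 4295 to 5749 FPKM in glaucoma. At 3D after crush 1 of the 10 was called, beside 3.61% of all genes called higher and 0.655% lower. At 2W after crush 0 of the 10 were called, beside 2.13% and 0.595%. The part of these sums in the results was not tested.

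**Figure D5:**
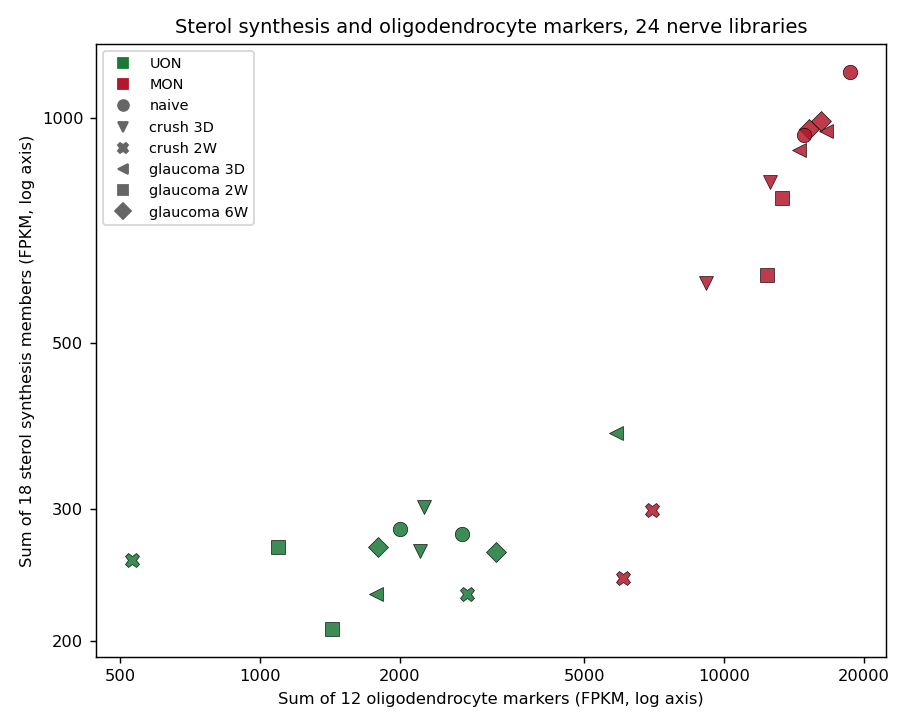
Summed FPKM of the 18 sterol synthesis genes against that of 12 oligodendrocyte markers in the 24 nerve libraries, 1 point per pool, on log axes. The 2W crush pools of MON lie lowest of the MON libraries on both axes, with 242 and 299 FPKM of synthesis genes, at the height of the UON libraries but with more oligodendrocyte RNA than these.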

How the data were processed

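Bulk RNA-seq of UON, MON and retina was analysed from the files of the authors. The members and gene lists were chosen with earlier results of these data known. The authors pooled equal RNA of same-sex mice, prepared libraries with an ultra low-input kit, checked read quality with FastQC, used HISAT2 v2.2.1 for alignment of paired reads to GRCm38, and ran StringTie v1.3.0 with Gencode annotation. The deposited estimated counts per gene were made by the authors with StringTie's own script, are whole numbers without normalization, and were used for tests. The deposited FPKM and TPM per gene were StringTie values of the authors, relative to transcript length and library. Some deposited columns of FPKM or TPM were treated as a score because a few values lay just below 0, and these (15 for FPKM) were set to 0. Strand is not given in the sources used here, and reads of 17 members that overlap another gene, 13 of them on the opposite strand, may be shared with it. Single-sample columns were matched to samples by the labels, and 0 were unmatched.

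Groups were taken from the sample titles. In R 4.3.3, edgeR 4.0.16 (TMM scaling, genes kept by a minimum count of 10 and total of 15, terms for group and sex, quasi-likelihood test) was fitted on all genes, with 1 fit for the naïve libraries of all tissues, 1 per tissue and injury model with its naïve pools, 1 for all MON libraries to compare the models, and 1 per model with UON and MON together for the difference of their responses. Of the 27 comparisons, 3 were regional, 15 against naïve and 9 between times, models or nerve responses. Calls needed a Benjamini-Hochberg adjusted p below 0.05 together with a log2 change of over 1 up or down. Every member was tested in each comparison, and those called by edgeR against naïve or between naïve tissues were named by role. Members not called were described in part. Of the other pathway genes, the 3 with the largest change among those called were named. DESeq2 1.42.0, which the study used, RLE scaling, no filter, no sex term, joint fits, a block for the pool of mice and leaving out each library were tried as alternatives. With 1 library left out, the lone pool was assumed to vary like the other groups. Scripts were tested on simulated counts. FPKM was drawn in plots with nothing added. Promoters were 300 base windows of RefSeq (GRCm38.p6), searched on both strands.

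No member had fewer than 63 estimated counts in any library, and n was 2 pools per group.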

Additional observations from a re-analysis of the deposited data

How the results depend on the processing

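With 2 pools per group the counts of members called depended on the test more than on the scaling, while signs did not turn: of 737 pairs of a called member and an alternative, 681 kept the call, 56 lost it and 0 reversed. DESeq2 called 1 member in UON at 2W after crush, 5 in MON at 3D and 19 at 2W after crush, 5 in MON at 2W of glaucoma, 14 between the crush times in MON, 1 and 12 between crush and glaucoma in MON at 3D and 2W, and 1 and 10 for the difference of the MON and UON responses at 3D and 2W after crush. Without the filter on low counts edgeR called 3 in MON at 3D and 19 at 2W after crush, 14 between the crush times, 1 and 10 between crush and glaucoma at 3D and 2W, and 1 and 7 for the difference of the responses at 3D and 2W after crush. Without the sex term, which serves as the replicate block, 2 were called in MON at 3D after crush and 2 between the crush times. With all 12 MON libraries in 1 fit, 2 were called at 3D after crush. A block for the pool of mice gave 0 in all 5 differences of responses, as without it. The cause of these differences was not tested. The 737 pairs cover only members called in the main fit, so that a reversed sign was unlikely from the start. Members not called are not covered by them. The shares of all genes called by DESeq2 are those given above. For the other settings, and for the fits below with 1 library left out, the share of all genes called is not given. Those counts do not show whether members were called more often than other genes.

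Leaving out 1 library at a time gave 17 to 23 members for naïve UON against MON, 9 to 13 for UON against retina and 18 to 23 for MON against retina. It gave 0 to 4 in MON at 3D after crush (0 without either naïve pool, 4 without either 2W pool) and 0 to 19 at 2W (0 without the naïve female pool, 1 without the naïve male pool). It gave 0 to 11 between the crush times (11 without the 2W male pool), 0 to 1 between crush and glaucoma at 3D (1 without the female glaucoma pool) and at 2W (1 without the female glaucoma pool), and 0 to 1 and 0 to 10 for the difference of the responses at 3D and 2W after crush (10 without the UON 2W female pool). The other comparisons gave 0 throughout.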
